A study of Mus musculus with 8 samples.

Results

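Integrins are receptors made of an alpha and a beta chain that hold a cell to the extracellular matrix. On the inner side of the membrane their beta tails bind talin and kindlin, which switch the receptor on, and these recruit the kinase FAK (gene Ptk2), paxillin, vinculin, zyxin, the tensins and a complex of integrin-linked kinase, PINCH and parvin, so that the receptor is tied to actin in a structure called the focal adhesion. In muscle the laminin receptor alpha7 beta1 and the fibronectin receptor alpha5 beta1 are textbook components of fibre attachment and of myoblast migration, and syndecans and CD44 are further matrix receptors of the same cells.

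The genes described here are those whose name in the array design is that of an integrin alpha or beta chain, vinculin, a talin, paxillin, zyxin, FAK, ILK, a parvin, PINCH1 (Lims1), a kindlin (Fermt1 to Fermt3), a tensin, a syndecan or CD44. The rule used names only and found 54 genes with 120 probes, out of 37074 named genes and 56605 probes on the array. It also took in Itgb1bp1 and Itgb1bp2, which bind the beta1 tail, Itgb3bp, a nuclear and centromere protein named for binding the beta3 tail, and the beta-like genes Itgbl1 and Itgb2l. RNA came from proliferating C2C12 cells, an immortal line of mouse myoblasts, at passage 10, in 8 cultures that the labels call biological replicates, 4 in each group. All 8 were transfected with Lipofectamine 2000. The 4 silenced cultures received antisense LNA GapmeRs (short oligonucleotides through which RNase H cuts a matching RNA) against the long non-coding RNA Pvt1, and the 4 control cultures received negative control GapmeRs. C2C12 is a single line, and the protocol lists 2 GapmeRs without saying whether they were pooled. Their sequences, 5′ to 3′, are shown because they are the agent that the groups differ in.

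Pvt1_1: ACCGTAGTAGAGTTAA
Pvt1_3: AGTCAACGCTTCACAT

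Each culture was read on 1 one-colour array, and all 8 arrays lay on 1 slide. The values below are log2 signals after quantile normalization, errors are SD over 4 arrays unless SE is named, and a gene or probe was called when the adjusted p of limma, over all 28649 tested probes, was under 0.05. The brightest Pvt1 probe went from 9.86 ± 0.30 in controls to 7.0 ± 0.63 in silenced cells, which left 13.8% of the control signal (change -2.86, SE 0.32, limma adjusted p 0.000682). Silenced replicate 4 was the dimmest array, with 51.6% of spots positive and significant against 58.8% to 62.5% on the others, and controls 1 to 3 shared the upper row of the slide with silenced replicate 1. Myoblast markers were checked first. Myod1, Des, Cdh15, Vim, Ncam1 and Pax7 were well above background on all 8 arrays, and Myf5 on none. Myod1, Des and Cdh15 were called lower (changes of -1.95, -1.35 and -0.86). The Cdh15 call was lost with the slide row as a block (limma adjusted p 0.0748). The summed signal of the 7 myoblast markers was 113400 to 138700 on control and 75230 to 97360 on silenced arrays. The median change of all tested probes was -0.19 and it was 0.02 under cyclic loess, another way of normalizing the arrays, so small changes have to be read against that shift. As in any bulk sample, fewer cells that carry a transcript and less of it in each cell cannot be told apart.

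Of the 54 genes, 33 had a probe well above background on all 8 arrays, 12 had none on any array and 9 lay between. The 12 were Itga2, Itga2b, Itga8, Itgad, Itgae, Itgb6, Itgbl1, Itgb2l, Itgb1bp2, Parvg, Fermt1 and Fermt3. The receptor chains above background on all 8 arrays were beta1, beta3, beta4, beta5 and beta7 with alpha3, alpha4, alpha5, alpha6, alpha7, alphaV and alphaM. The plot of the subunit probes on each array shows these chains and the dim ones side by side.

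**Figure D1:**
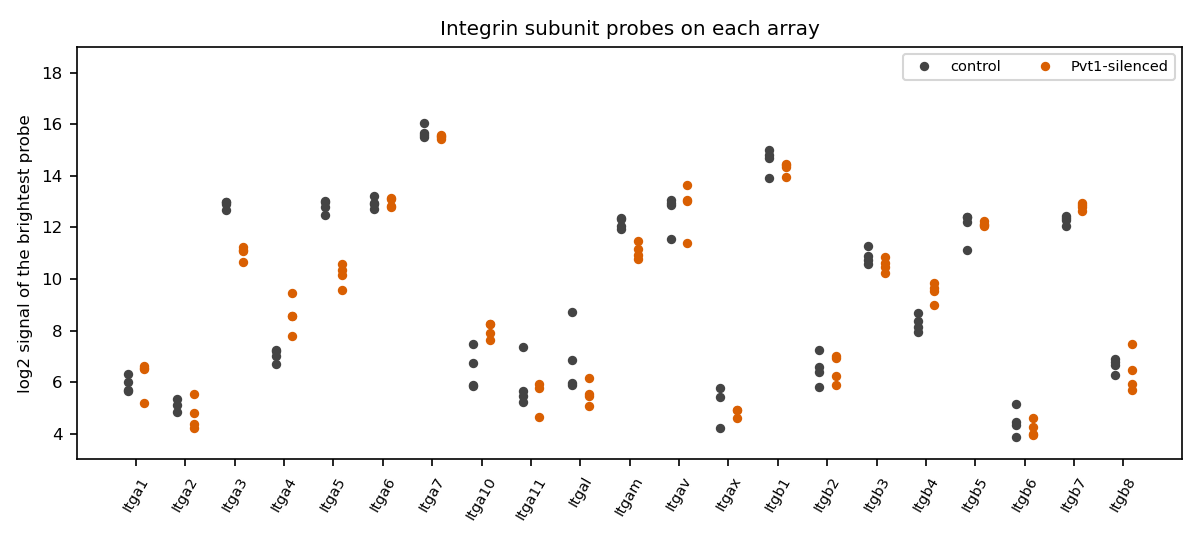
Log2 signal of the brightest tested probe of each integrin chain (horizontal axis) on the 4 control arrays (grey) and the 4 Pvt1-silenced arrays (orange), where each point is an array. Itga5 and Itga3 were lower on every silenced array and Itga4 and Itgb4 higher, and levels of different probes are not comparable with each other.

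Represented by their brightest probe, 44 genes could be tested, and after silencing 11 of them were lower, 3 were higher and 30 were not called. The genes that fell were the fibronectin receptor chain Itga5, the laminin receptor chain Itga3, the leukocyte integrin Itgam, the syndecan Sdc3, the kindlin Fermt2, the adaptors Ilk and Parvb, the kinase Ptk2, the scaffold Pxn and the tensins Tns2 and Tns3. The genes that rose were Itga4, Itga10 and Itgb4. These are 25% and 6.82% of the tested members, where 14.0% of all 19360 tested genes fell and 5.99% rose. The median change of the 44 genes was -0.26, against -0.09 for all genes. In all 14 called genes the control and silenced arrays did not overlap, as in 16 of the 44 tested (36.4%), while 26.0% of all genes did not overlap. Counted by probe, 17 of 77 tested member probes were lower (22.1%) and 6 higher (7.79%), where 18.4% and 4.79% of all probes were.

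All 14 genes moved in the same direction within each row of the slide. Groups without overlap make that certain, so it adds no support to the calls. The upper row held silenced replicate 1 as its only silenced array, and the lower row control replicate 4 as its only control array. With the slide row as a block, 6 stayed called lower and 2 higher (13.6% and 4.55%, where 5.97% and 2.41% of all genes were). Ilk, Fermt2, Pxn, Tns2, Tns3 and Itga10 lost their call. Cyclic loess called the same 14 genes and 6 more, all of these higher (Itgb7 0.69, Parva 0.68, Tln2 0.62, Itga1 0.59, Itgb1bp1 0.44 and Tln1 0.35), so that 11 were lower and 9 higher (25% and 20.5%, where 14.3% and 22.1% of all genes were).

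**Figure D2:**
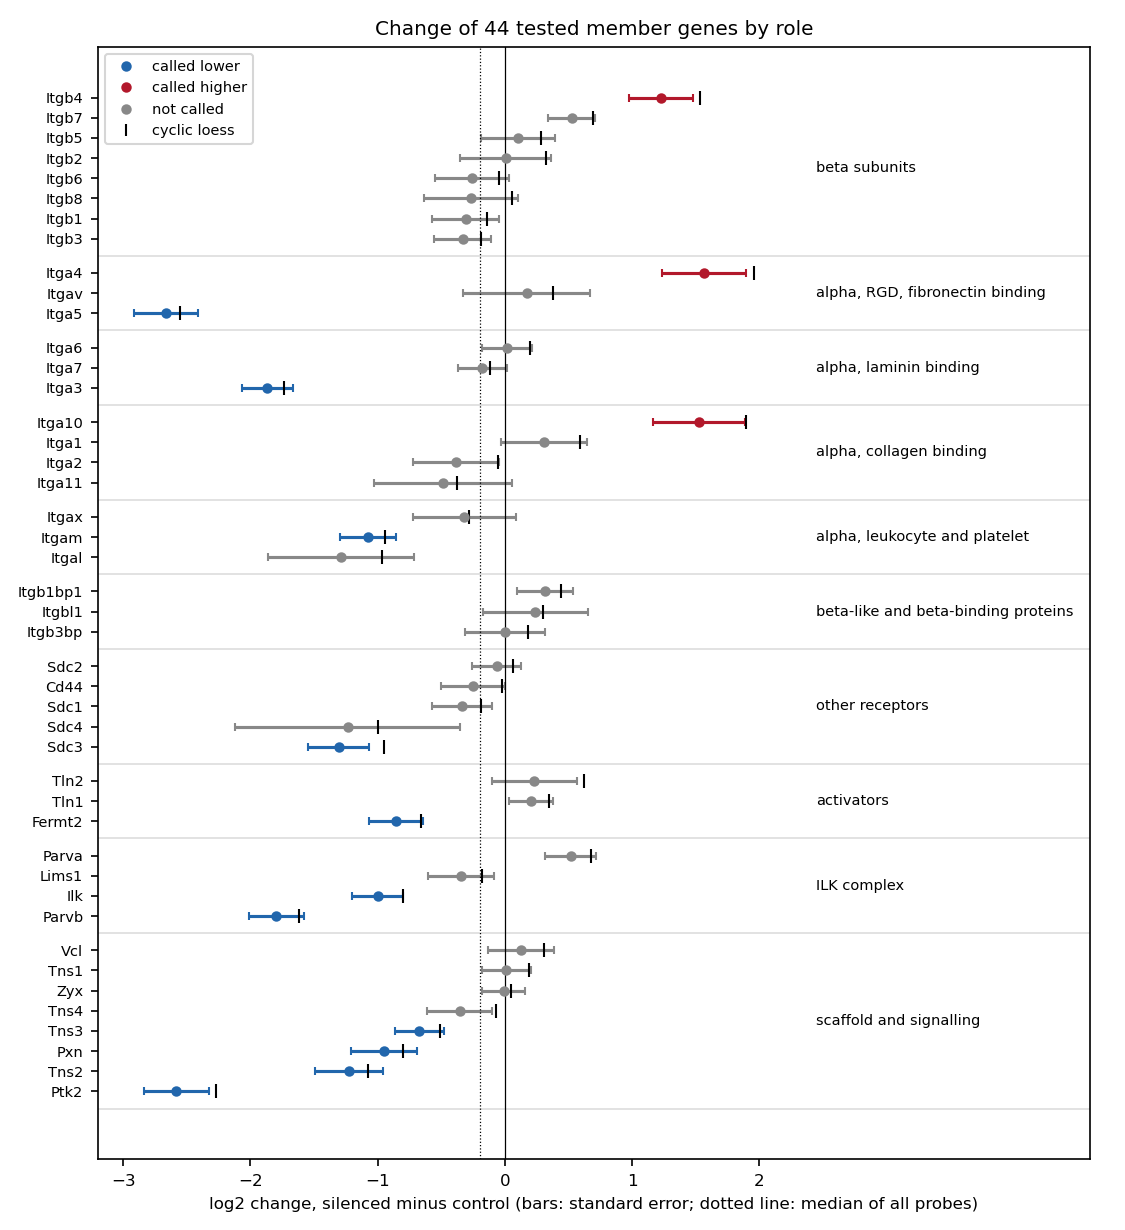
Log2 change, silenced minus control, of the brightest tested probe of each of the 44 tested genes, grouped by role; bars are the standard error, blue is called lower, red called higher, grey not called, the black tick is the change under cyclic loess and the dotted line the median of all probes. The lower calls lie among the alpha chains, the kindlin, the ILK complex, the scaffold proteins and, with Sdc3, the other receptors, while none of the 8 beta chains was called lower.

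Among the alpha chains that bind fibronectin and other RGD ligands, Itga5 and Itga4 moved in opposite directions. Itga5, which pairs with beta1 to make the classical fibronectin receptor, had log2 signals of 12.80, 13.01, 12.49 and 12.99 on the control arrays and 10.14, 10.34, 9.59 and 10.57 on the silenced arrays. The highest silenced value lay well below the lowest control value. The change was -2.66 (SE 0.25, limma adjusted p 0.000426), so that 15.8% of the control signal remained, and it was -2.63 and -2.82 within the rows of the slide. The Itga5 probe lies at chr15:103175022-103175081 (build mm9, minus strand).

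Itga4, the chain of the receptor that binds fibronectin and VCAM-1, gave 6.69, 7.20, 7.26 and 7.01 in controls and 8.58, 8.58, 9.47 and 7.79 in silenced cells. Its lowest silenced value, on the dim replicate 4, was still above the highest control value, and the change was 1.56 (SE 0.33, limma adjusted p 0.00934), a 2.96-fold rise. Another 5 Itga4 probes stood above background on none of the arrays. Itgav, the shared chain of the vitronectin receptors, gave 12.87, 13.05, 11.55 and 12.95 in controls and 13.03, 13.05, 13.63 and 11.39 in silenced cells. One array of each group stood below the rest, and the change of 0.17 (SE 0.50) was within that spread. Itga8 and Itga9 could not be tested.

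Of the laminin-binding chains, Itga3 fell and Itga6 did not. Itga3 signals were 12.69, 12.98, 12.99 and 12.89 in controls and 11.08, 11.23, 10.65 and 11.12 in silenced cells, a change of -1.87 (SE 0.20, limma adjusted p 0.000623) that left 27.4% of the control signal. Its second probe, well above background on 3 arrays of each group, changed by -0.20 and was not called. Itga6 was probed 5 times. Its brightest probe changed by 0.02 (SE 0.20), and the other 4 lay between -0.78 and 0.63, none called.

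Itga7, the laminin receptor chain of muscle, gave a different answer with each of its probes, and so did its partner Itgb1. The brightest Itga7 probe gave 15.52, 15.59, 16.05 and 15.67 in controls and 15.45, 15.58, 15.56 and 15.52 in silenced cells (change -0.18, SE 0.19, limma adjusted p 0.548). The other, which starts at base 3167 of the same transcript rather than 3953, gave 12.92, 13.18, 12.69 and 13.10 against 10.89, 11.17, 10.37 and 10.67. That is a change of -2.20 (SE 0.23, limma adjusted p 0.000553) with no overlap. For Itgb1, the beta chain shared by most of the alpha chains above, the brightest probe gave 14.82, 14.69, 13.92 and 15 against 14.43, 14.36, 14.44 and 13.97, groups that overlapped (change -0.31, SE 0.26, limma adjusted p 0.444). Without control replicate 3 that change was -0.54 and without control replicate 4 it was -0.18, neither called. A probe 1084 bases nearer the 5′ end gave 13.24, 13.52, 12.79 and 13.34 against 11.57, 11.92, 11.26 and 11.60. It fell by 1.63 (SE 0.23, limma adjusted p 0.0017), without overlap. When the tested probes of each gene were averaged, both genes were called lower (-1.19 for Itga7 and -0.97 for Itgb1).

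The stretches these 4 probes read are shown because the call depends on which of them is used. Each line gives 30 of the 60 bases of a probe, 5′ to 3′ as in the array design, named by its first base in the transcript, and capitals mark a polyadenylation signal (AATAAA or ATTAAA). The Itgb1 probe from base 2631 spans chr8:131250081-131255976 (build mm9, plus strand), a stretch longer than the probe, so it crosses an intron, while the one from base 3715 lies at chr8:131257001-131257060. The Itga7 probes lie at chr10:128390852-128390911 and chr10:128395274-128395333, both on the plus strand.

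Itgb1 from base 2631: gacacgggtgaaaatcctatttacaagagt
Itgb1 from base 3715: ctcgaactagtcacaatcttgttttaagtg
Itga7 from base 3167: cgagccaacatcacagtgaaatcctccatt
Itga7 from base 3953: tggttttgtctatttATTAAAaagtatttg

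The collagen-binding chains were dim. Itga10 was called higher, with 5.86, 5.90, 7.47 and 6.73 in controls, 2 of which were well above background, and 8.24, 7.92, 8.25 and 7.65 in silenced cells (change 1.52, SE 0.36, limma adjusted p 0.0151). The control values spread more than the silenced ones, and a second Itga10 probe, 1483 bases nearer the 5′ end, changed by -0.06 and was not called. The Itga10 call was lost without control replicate 2 and with the slide row as a block. Itga1, Itga2 and Itga11 changed by between -0.49 and 0.31 and were not called, although cyclic loess called Itga1 higher (0.59).

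Of the remaining beta chains, Itgb4 rose. This partner of alpha6 in hemidesmosomes gave 7.93, 8.12, 8.67 and 8.37 in controls and 9.83, 9.64, 9.55 and 8.99 in silenced cells, a change of 1.22 (SE 0.25, limma adjusted p 0.00825). Again the lowest silenced value was that of replicate 4, and it lay above all controls. Itgb3 and Itgb5, the vitronectin receptor partners of alphaV, changed by -0.33 (SE 0.23) and 0.10 (SE 0.29) and were not called. Itgb7, known from lymphocytes, was well above background on all 8 arrays. Its 4 silenced values (12.63 to 12.93) lay above its 4 control values (12.07 to 12.44), yet the change of 0.53 had a limma adjusted p of 0.0667, and under cyclic loess it was 0.69 and called. Itgb2, Itgb6 and Itgb8 changed by between -0.26 and 0.01. Of the genes named for beta chains, Itgb1bp1 changed by 0.31 (SE 0.22) and Itgbl1, above background on no array, by 0.24 (SE 0.41), and neither these nor Itgb3bp were called. Under cyclic loess Itgb1bp1 was called higher (0.44).

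Among the 6 chains of leukocytes and platelets, Itgam alone was well above background on all 8 arrays. Itgam, a chain of the complement receptor of macrophages, gave 11.95, 12.35, 12.07 and 12.33 in controls and 11.18, 11.49, 10.79 and 10.94 in silenced cells, and fell by 1.08 (SE 0.22, limma adjusted p 0.00785). Its other tested probe, above background on no array, changed by -0.22 and was not called. Itgal was above background on 2 control arrays and no silenced array by its tested, brightest probe, where control replicate 1 read 8.73 and the other 3 controls 5.87 to 6.85, and its change of -1.29 was not called. Itgax was above background on 1 control array, by a probe that could not be tested. Itga2b, Itgad and Itgae were so on none. The summed signal of 8 leukocyte markers was 1972 to 2140 on the control arrays and 4353 to 9120 on the silenced arrays, the opposite direction to Itgam. Of those markers Cd68 was called higher (1.84) and Csf1r lower (-1.12), Ptprc changed by 1.26 without a call, and Cd79a and Lyz2 were above background on no array. The Csf1r call was lost with the slide row as a block (limma adjusted p 0.112). Sums were also taken over markers of other cell types. They were 823 to 1656 against 4402 to 5500 for 7 liver genes and 521 to 697 against 2954 to 3649 for 4 fibroblast genes. Of the latter Dcn and Pdgfra were called higher by 2.49 and 0.73, and Lum and Thy1 were above background on no array. The Pdgfra groups overlapped, and its call was lost with the slide row as a block (limma adjusted p 0.172). For 4 platelet genes the sums were 77.9 to 108.6 against 103 to 190, which overlapped. None of these 4 was called, and Pf4 and Gp9 were above background on no array. The sums were 104 to 143 against 57.8 to 82.0 in controls for 4 epithelial genes, of which Krt8 alone passed background and on silenced arrays, and, for 7 genes of differentiated muscle, 3065 to 4864 on control arrays and from 2224 to a value below all controls on silenced arrays. Of these Acta1 and Myh1 were called lower. The 4 endothelial genes were above background on no array (67.2 to 99.6 against 68.0 to 95.3). The liver genes Alb, Fgb, Mup1 and Serpina1a were above background on all 4 silenced arrays and on 0 control arrays, Ttr on 3 silenced and 0 control arrays, Apoa1 on none, and Apoa2 on all 8 with a change of -0.15 that was not called. The part of such transcripts in the member results was not tested.

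Of the other matrix receptors, Sdc3 was called lower. Sdc3, the syndecan of muscle and nerve, gave 8.74, 9.05, 8.82 and 9.12 in controls and 7.87, 7.98, 7.58 and 7.09 in silenced cells (change -1.31, SE 0.24, limma adjusted p 0.0049). Sdc4, which acts with alpha5 beta1 in focal adhesions, depended on 1 array. It gave 13.07, 13.38, 8.88 and 13.38 in controls and 11.04, 11.24, 10.71 and 10.79 in silenced cells. Control replicate 3 lay below every silenced array and the other controls lay above all of them, so that the change was -1.23 (SE 0.89, limma adjusted p 0.35) with all arrays and -2.33 (limma adjusted p 0.000549) without control replicate 3. Cd44, the hyaluronan receptor, changed by -0.25, -0.62 and 0.31 over its 3 probes, and Sdc1 and Sdc2 by -0.34 and -0.06 at their brightest probes, none called.

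Proteins that switch integrins on were split. Fermt2 (kindlin-2), the kindlin of muscle, gave 13.20, 13.47, 13.48 and 13.33 in controls and 12.76, 12.50, 12.72 and 12.07 in silenced cells, without overlap (change -0.85, SE 0.21, limma adjusted p 0.019). That call was lost without control replicate 2 or 4 and with the slide row as a block. Tln1, the main talin, had 14.81 to 15.05 in controls and 15.07 to 15.26 in silenced cells, no overlap, but a change of 0.21 (limma adjusted p 0.438), which cyclic loess called higher (0.35). Tln2 changed by 0.23 at its brightest probe, near the start of the transcript, and was not called, although cyclic loess called it higher (0.62), while a probe from base 7227, above background on all controls and 2 silenced arrays, fell by 1.85 (SE 0.30, limma adjusted p 0.00291).

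The complex of ILK, PINCH and parvin links beta tails to actin. Of its 4 tested genes 2, Ilk and Parvb, were called lower, where 14.0% of all genes were. Ilk, its central scaffold, gave 14.44, 14.53, 14.57 and 14.64 in controls and 13.78, 13.73, 13.17 and 13.50 in silenced cells (change -1.0, SE 0.20, limma adjusted p 0.00766), and the call was lost with the slide row as a block (limma adjusted p 0.0513). Lims1, which binds ILK, changed by -0.35 (SE 0.26) and was not called.

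Parvb, the parvin of striated muscle, had 3 tested probes, all called and not all in the same direction. The brightest gave 11.31, 11.47, 11.46 and 11.59 in controls and 9.89, 9.94, 9.57 and 9.24 in silenced cells, a change of -1.80 (SE 0.21, limma adjusted p 0.000842). A probe from base 1034 of the same transcript changed by -2.59 (SE 0.24). The third, designed on an Ensembl transcript of its own and lying at chr15:84104061-84104120, which is 40992 bases upstream of the brightest on the genome, rose. It gave 7.18, 7.40, 7.13 and 7.49 in controls and 8.60, 8.28, 8.86 and 7.57 in silenced cells (change 1.02, SE 0.28, limma adjusted p 0.0277). Leaving out any array other than control replicate 3 or silenced replicate 4 ended that call, as did the slide row as a block. Parva, the more widely expressed parvin, changed by 0.52 at its brightest probe (limma adjusted p 0.0925), which was called higher under cyclic loess (0.68). A probe further along the same transcript, from base 3893 rather than 1671, fell, from 11.67, 12.01, 10.93 and 11.85 to 10.52, 10.87, 10.07 and 10.39 (change -1.15, SE 0.28, limma adjusted p 0.0173), and lost its call with the slide row as a blocking term or without control replicate 2 or 4. The parvin probes are shown, in the same manner as above, because they read different ends or transcripts of their genes.

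Parva from base 1671: cctgaacataggAATAAAgatcagaattag
Parva from base 3893: ggatgtttccgtttagattctaggatggaa
Parvb from base 162: aagcaagattcctgtggacacaaggaggac
Parvb from base 1034: aaggcacgccctgaagatgtggtgaacttg
Parvb from base 2718: ggatgcggtgacATTAAAgagccacactga

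Of the 8 scaffold and signalling genes 4 were lower and 4 were not called, where 14.0% of all genes were lower. With the slide row as a block only Ptk2 of these 4 kept its call. Ptk2, which encodes FAK, the kinase that signals from clustered integrins, had the largest fall after Itga5 among the brightest probes. It gave 9.94, 10.20, 9.94 and 10.15 in controls and 7.61, 8.02, 6.86 and 7.41 in silenced cells, which left 16.7% of the control signal (change -2.58, SE 0.26, limma adjusted p 0.000488). The fall was -2.41 and -2.72 within the rows of the slide. A second Ptk2 probe, nearer the 5′ end of the gene and also above background on all 8 arrays, gave 7.31, 7.65, 7.86 and 7.89 against 8.12, 7.64, 8.35 and 6.59. Those groups overlapped (SE of the change 0.36, limma adjusted p 0.997). A further probe, above background on 1 control array, changed by -0.52 and was not called. The brighter probe lies at chr15:73046410-73046469 and the other at chr15:73151206-73151265, both on the minus strand.

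Ptk2 from base 999: gatcctattgggagatgaggggtaatgccc
Ptk2 from base 2960: ccacctaagcaacctgtccagcatcagcag

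Pxn (paxillin), a substrate of FAK, gave 11.31, 11.63, 11.79 and 11.55 in controls and 10.80, 11.04, 10.67 and 9.96 in silenced cells, and fell by 0.95 (SE 0.26, limma adjusted p 0.0265). This call was among the least stable, since it was lost with the slide row as a blocking term or without control replicate 2 or 4 or silenced replicate 1 or 3. The tensins cap actin and bind beta tails. Tns2 fell by 1.23 (SE 0.27) at its brightest probe, and another probe, well above background on no silenced array, was at least 1.23-fold higher in controls. Tns3 fell by 0.67 (SE 0.19, limma adjusted p 0.0331), and its second probe changed by -0.67 (SE 0.25) without a call. The Tns3 call was lost without any 1 of 5 arrays, control replicates 1, 2 and 4 and silenced replicates 1 and 3. Tns1 changed by 0.01. For Tns4, which was dim, the brightest probe was not called and another was at least 1.06-fold higher in silenced cells, above background on 3 of those arrays and no control. Its groups overlapped, and its call was lost with the slide row as a block, under normexp and without any 1 of 5 arrays, control replicates 1 and 2 and silenced replicates 1, 2 and 3.

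Vcl (vinculin), which ties talin to actin, and Zyx (zyxin), which is recruited to adhesions under tension, were not called at their brightest probes. Vcl gave 14.20, 14.41, 13.92 and 14.26 in controls and 14.46, 14.37, 14.78 and 13.69 in silenced cells, groups that overlapped. Zyx gave 15.50 to 15.71 in controls and 15.54 to 15.68 in silenced cells, with a change of -0.01 (SE 0.17). Another Zyx probe gave 7.60, 7.83, 8.35 and 8.03 against 8.90, 8.74, 9.43 and 8.29. It was called higher although the groups overlapped (change 0.89, SE 0.28, limma adjusted p 0.0443), and lost its call when any array other than control replicate 3 or silenced replicate 4 was left out, and with the slide row as a block.

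**Figure D3:**
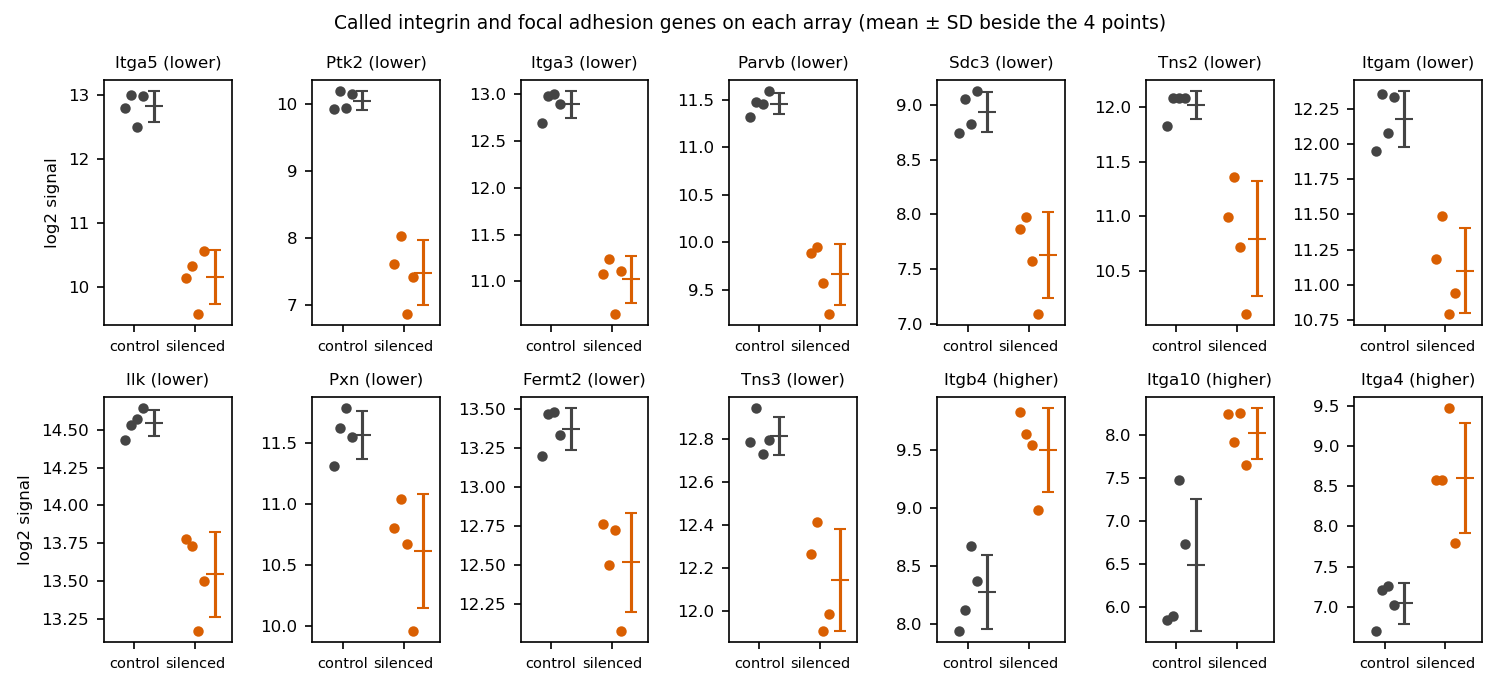
Log2 signal of the 14 called genes at their brightest probe, on the 4 control arrays (grey) and the 4 silenced arrays (orange), with the mean and SD beside the points; vertical axes differ between panels and do not start at 0. In every panel the groups do not overlap, and in Itga4 and Itgb4 the lowest silenced point is replicate 4.

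How a gene was probed mattered across the whole set. There were 24 genes with probes at different places on 1 strand, and the probe nearer the 5′ end had the more negative change in 13 of them. In 9 of those pairs both probes were well above background on all 8 arrays, and the 5′ probe had the more negative change in 7. When the outermost probes were taken among those above background on all 8 arrays, a choice made after seeing the data, 13 genes had a pair and the count was 9, with a median difference between the changes of -0.33. In the other 4 the 3′ probe had the more negative change, by 2.82 in Parvb, 2.58 in Ptk2, 1.67 in Parva and 0.01 in Tns3. Over the whole array, among 766 genes with probes 300 to 1000 bases apart, the 5′ probe changed more negatively in 646, and the median 5′ minus 3′ signal was -0.97 ± 0.18 on control and -1.87 ± 0.23 on silenced arrays (SD, n = 4), without overlap. The member pairs are unlike these in spacing on the genome, since those 13 lie 92 to 104796 bases apart there and 0 of them fall in that window. Spacing along the transcript can be smaller. The Itga7 probes, 4422 bases apart on the genome, start at bases 3167 and 3953 of the same transcript. Of the 120 member probes 10 hold a polyadenylation signal. Of the 9 that were tested 1 was lower and 2 were higher, with a median change of 0.52. The part of probe position in the member results was not tested. When each member gene was read by its probe nearest the 3′ end, 13 genes were lower and 5 higher. The share of all genes read in this way was not taken, so these counts have no background. Parva, Tln2 and Zyx then turned from the sign of their brightest probe, each with a call (-1.15, -1.85 and 0.89). Tns4 turned as well, but by a probe that allows only the bound given above.

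**Figure D4:**
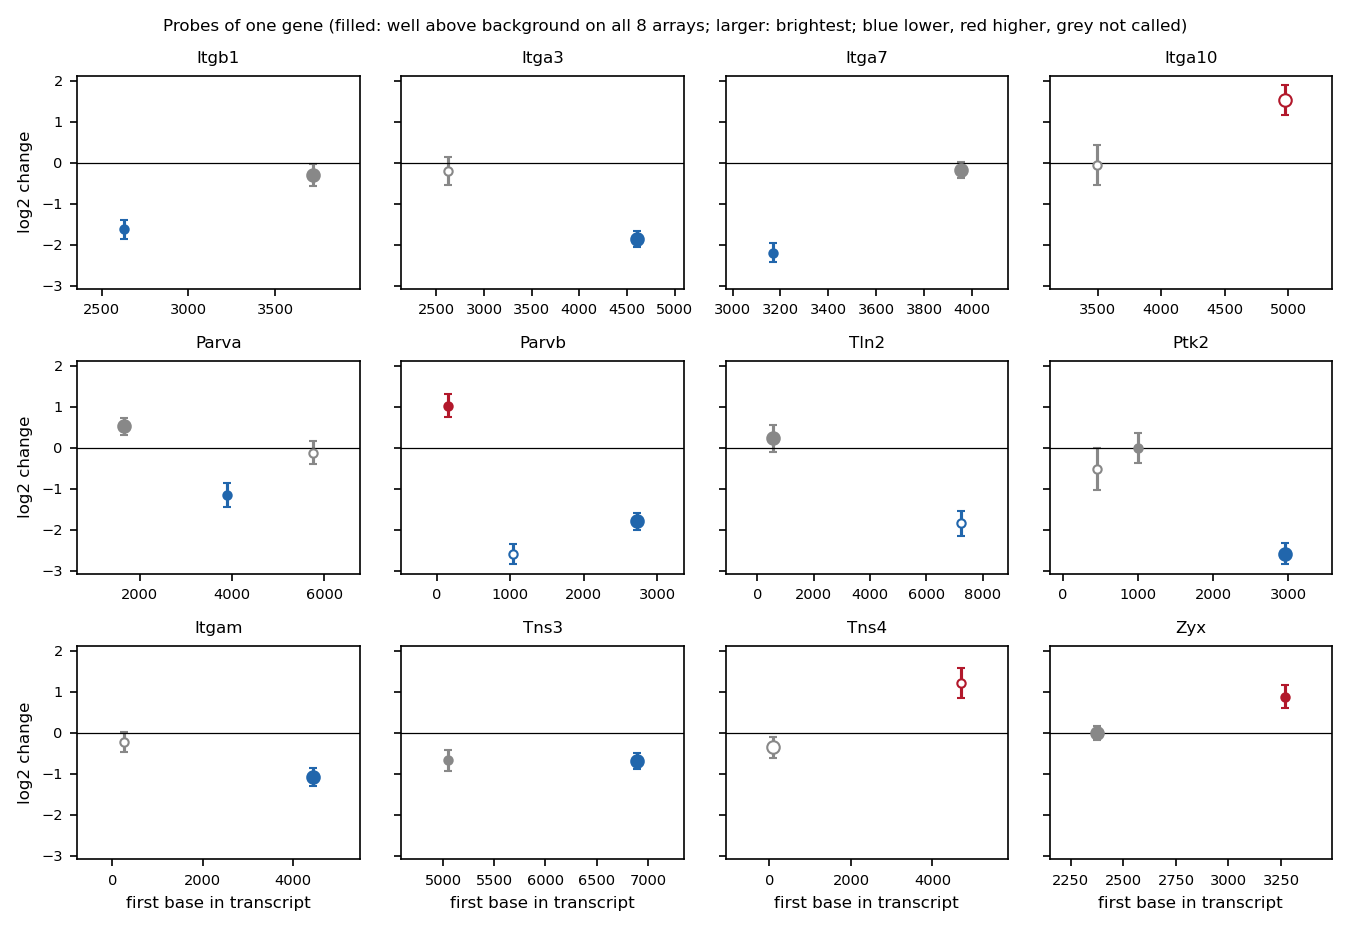
Log2 change with its standard error (vertical axis) of every tested probe of the 12 genes whose tested probes differ in call, against the first base of the probe in its own transcript (horizontal axis, bases); filled symbols were well above background on all 8 arrays and the largest symbol is the brightest probe. Itgb1 and Itga7 change less at the probe nearer the 3′ end, as do the Parvb probes from bases 1034 and 2718, while Tln2 and Ptk2 change in the other order, and probes in a panel can belong to different transcripts.

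A list of 81 genes that work with these receptors was read in the same fit, to place the members in their pathway. Of 79 tested genes 14 were lower and 2 higher (17.7% and 2.53%, where 14.0% and 5.99% of all genes were), with a median change of -0.21. By role, 4 of 15 ligands (26.7%), 8 of 34 signalling genes (23.5%) and 2 of 30 actin linkers (6.67%) were lower, and both genes that were higher were actin linkers. By the fitted value the largest falls were those of Elmo2, Col4a2 (-2.20, SE 0.28) and Sorbs3 (-1.72, SE 0.31). Elmo2 is part of the module that activates Rac, Col4a2 is a basement membrane collagen and Sorbs3 an adaptor that binds vinculin. On no silenced array was Elmo2 well above background. Its probe was at least 2.54-fold higher in controls, a bound, so that its rank among the falls is not measured. Lims2, the relative of Lims1, rose by 1.17 (SE 0.21), and Kank1, which no control array had well above background, was at least 1.22-fold higher in silenced cells. The other lower ligands, named after their values were seen, were Col4a1 (-1.71), Tnc (-0.96) and Lamb2 (-0.89). With the slide row as a block 7 of the 14 lower genes were called, among them Elmo2, Col4a2, Col4a1 and Sorbs3 but not Tnc or Lamb2, and so were Lims2 and Kank1. The counts depended on the settings, as did those over the whole array. Under cyclic loess 6 were higher, where 22.1% of all genes were. Under the 75th percentile 22 were higher, where 7075 of all 28649 tested probes were. Lower genes were 7 without control replicate 4, 8 without control replicate 2 and 21 without control replicate 3. Lower probes in all were then 2995, 3077 and 5737.

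Promoters were read for motifs as a description of the members, and a link of any motif to the changes was not tested. RefSeq windows (build GRCm38.p6) of 250 bases upstream of the start were at hand for 39 of the 54 genes, in 45 windows, which included 9 of the 11 genes called lower and 2 of the 3 called higher. An E-box (CANNTG), which myogenic factors bind, was in 64.4% of member windows and in 66.2% of all 32851 windows. The E-box CACGTG of the Myc family was in 2 genes, Ilk and Lims1, or 4.44% of windows against 6.02% of all. A GC box (GGGCGG or CCGCCC) was in 46.7% against 32.7%. The CArG box, the binding motif of serum response factor, was in 3 member windows (6.67%), those of Fermt2, Itgb6 and Vcl, and in 1.47% of all. These are matches of letters on both strands, not sites. The window of Itga5, with 1 E-box and 2 GC boxes in capitals, is shown as the gene with the largest fall, and those of Fermt2, which was called lower, and Vcl, which was not, as holders of a CArG box (in capitals). They lie at chr15:103366792-103367041 (minus strand), chr14:45530066-45530315 (minus strand) and chr14:20929148-20929397 (plus strand).

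Itga5 upstream window: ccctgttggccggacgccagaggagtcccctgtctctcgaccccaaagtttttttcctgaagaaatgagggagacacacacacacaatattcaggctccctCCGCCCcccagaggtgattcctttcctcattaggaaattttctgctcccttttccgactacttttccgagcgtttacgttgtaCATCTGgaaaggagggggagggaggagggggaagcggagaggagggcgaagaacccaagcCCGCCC
Fermt2 upstream window: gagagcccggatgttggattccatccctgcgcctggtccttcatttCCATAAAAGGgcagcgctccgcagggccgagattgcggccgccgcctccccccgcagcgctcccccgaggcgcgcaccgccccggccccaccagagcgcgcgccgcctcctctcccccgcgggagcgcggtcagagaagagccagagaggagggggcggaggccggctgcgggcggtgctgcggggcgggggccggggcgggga
Vcl upstream window: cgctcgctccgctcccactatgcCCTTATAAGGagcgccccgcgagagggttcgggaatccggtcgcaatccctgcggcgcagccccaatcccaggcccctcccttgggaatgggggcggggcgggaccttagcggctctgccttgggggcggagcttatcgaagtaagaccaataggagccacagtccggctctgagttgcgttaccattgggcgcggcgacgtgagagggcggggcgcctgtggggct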

How the data were processed

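Per the labels, total RNA of C2C12 myoblasts was labelled with Cy3 by a low input amplification kit and hybridised to 1 one-colour Agilent array per sample. The authors deposited the scanner output, with intensity values (processed signal, background-subtracted and linear) and quality flags for each spot. They also gave a table of normalized intensities of the same arrays, used here, after taking log2, only as an alternative. The submitters' processing notes name Agilent Feature Extraction 10.7.3.1, while the file headers give 12.0.0.7. Probe positions are those of the array design (build mm9). Exon and UTR annotation was not analysed here.

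Of 59305 spots that were not controls, those not positive and significant or flagged as outliers were set to missing. log2 intensity was quantile normalized over 8 arrays, and spots of a probe (56605 probes) were averaged. Probes with at least 3 values in each group were tested with limma 3.58.1 (R 4.3.3; lmFit, eBayes, group as the only term, Benjamini-Hochberg adjustment over all tested probes, threshold 0.05). The brightest tested probe stood for its gene. "Well above background" is the scanner software's own flag. Where no array of a group had it, the fold is a bound: the bright group's mean over the dim group's mean of, per array, the higher of the lowest signal well above background and the probe's own. Named with values were members called at the brightest probe, members with called and uncalled probes, a set of core adhesion genes whatever their call, and the called partner genes with the 3 largest changes in each direction; leukocyte and platelet chains were named by detection, and remaining members by range and count. Figures used matplotlib 3.10.9. The number of arrays limits the precision, and since nothing further is known of the cultures, p-values measure the spread between these samples. The fit was tested on simulated data. The members, partner list and marker lists (myoblast, differentiated muscle, leukocyte, fibroblast, liver, platelet, endothelial and epithelial) were chosen with earlier results of these data known. Alternatives changed the normalization (cyclic loess, 75th percentile, normexp with an offset of 50, the authors' table), the filters, blocks, prior, test, choice of probe and arrays.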

Additional observations from a re-analysis of the deposited data

Results flagged for a closer look

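Among 86 groups of 4 values examined, each for a member probe or Pvt1 in controls or in silenced cells, 5 held an array that stood apart from its group by Dixon's criterion, which chance meets in about 1 group in 20. Control replicate 3 was the array in 3 of them. It read 8.88 for Sdc4, where the other controls read 13.07 to 13.38, 11.55 for Itgav (others 12.87 to 13.05) and 11.12 for Itgb5 (others 12.21 to 12.40). Control replicate 1 read 11.83 for Tns2 where the others were all at 12.08, a small gap in a tight group. Silenced replicate 4 read 8.10 for the Tns3 probe from base 5053 (others 8.94 to 8.99). Control replicate 3 had 61.2% of its spots positive and significant, within the range of the other controls.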

How the results depend on the processing

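All 14 called genes kept their direction under each alternative that could be fitted. Itga10 could not be fitted when only spots well above background were used, since too few control values were left. Averaging the probes of a gene lost Itga10 (0.73). The averages of Itgam and Tns2 also lost their calls, but some arrays lack the dim probe and hold the brighter probe alone, so these averages are not comparable between arrays. Under cyclic loess, normexp, the authors' table, a robust trended prior and probes with a value on all arrays, all 14 were called. The 75th percentile lost Ilk, Fermt2 and Tns3, and keeping dim spots lost Tns3. The number of higher calls moved with the scaling. Member genes called higher were 3, and 9 under cyclic loess, 13 under the 75th percentile, 9 in the authors' table, 9 with dim spots kept, 5 with the robust prior and 5 with the probe nearest the 3′ end. For member probes (6) these were 14, 19, 13 and 13 under the first 4 settings, for all probes (1373) 5416, 7075, 4509 and 4990, and for partner genes (2) 6, 22, 7 and 8. The lower share of all calls was 79.3%, 49.3% under cyclic loess and 49.7% in the authors' table, and the members' median change was -0.26, -0.05 and 0.00. With the slide row as a block, lower and higher calls were 6 and 2 for member genes, 11 and 2 for member probes, 2572 and 534 for all probes, and 7 lower for partner genes. Correlations between same-numbered deviations were -0.0434, 0.189, 0.221 and 0.0566, too few and too small to tell whether replicate numbers pair the samples. Control replicates 2 and 3 were closest to the silenced culture of their own number, and control replicates 1 and 4 were not. With the replicate block 9 member genes were lower and 3 higher, 15 member probes lower and 3 higher, 3994 probes lower and 1023 higher in all, and 10 and 2 partner genes. The study's methods give a t-test with permutation p-values and Bonferroni adjustment for fibre types, and its supplement an unequal-variance form for the Pvt1 arrays. The methods' t-test as run here assumed equal variance and used no permutation. It called with Bonferroni adjustment 0 member genes, 0 member probes, and 7 lower and 8 higher probes in all, and did not call Pvt1 (-2.86), where limma before adjustment gave p under 0.05 for 12 lower and 5 higher member genes. With Benjamini-Hochberg it called 3 higher member probes and lost Itga10 and Pxn. Leaving out single arrays gave 8 to 12 lower and 2 to 7 higher member genes, 12 to 21 lower and 2 to 10 higher member probes, 2995 to 5737 lower and 684 to 3572 higher probes in all, 7 to 21 lower and 2 to 4 higher partner genes, and -3.12 to -2.69 for Pvt1. The highest counts of higher member genes and probes came without silenced replicate 4, and the 21 lower member probes and partner genes without control replicate 3. Reversed were Parva (-1.15), Tln2 (-1.85) and Zyx (0.89) when read by the 3′ probe, as was the fitted value of Tns4 (1.22), which no control array had well above background, so that its size is not measured, and Zyx (0.49) under the 75th percentile. Causes were not tested. Dim probes have the least signal over background and are the least certain.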
